A study of Mus musculus with 24 samples.

Results

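The comparison set the CD27+CD69+ population of tumour natural killer (NK) cells against the CD11b+CD69- population, a pair of sorted populations that differs in every marker used for sorting. It used the 12 libraries whose titles carry those names, 6 of each, out of 24 libraries in the series. The remaining 12 libraries, 6 CD11b+CD69+ and 6 CD27+CD69-, entered the same statistical fit and are used below only for levels set side by side. All populations were sorted from B16F10 tumours, a mouse melanoma cell line, grown under the skin of the flank of female wild-type B6 mice for 14 days. For each library 100 cells were sorted straight into lysis buffer, and polyadenylated RNA was amplified as full-length cDNA. The labels name melanoma as the cell type and tumour as the tissue, whereas the design text names the sorted NK cells, so the check against NK cell markers below matters. Nothing in the labels ties replicates to separate animals. The spread that p-values are measured against is therefore that of these samples, and it may be technical in part. As sorts of 100 cells are bulk samples, fewer cells of a type and less RNA per cell cannot be told apart.

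NK cells are innate lymphocytes that kill tumour cells with granules of perforin and granzymes and secrete cytokines and chemokines. In the mouse they mature from CD27+ cells to cells that carry CD11b, the alpha M integrin chain encoded by Itgam, and mature cells gain killing machinery and receptors that let them leave tissues and circulate. CD69 is a surface lectin induced early after activation, and it opposes exit from tissue by removing a receptor for sphingosine 1-phosphate from the surface. Levels are given as CPM, counts scaled to a common library size with the TMM method. Every ± is a standard deviation over 6 libraries, and every difference is CD27+CD69+ minus CD11b+CD69- on the log2 scale. A gene is said to be higher or lower only where the quasi-likelihood test of edgeR, adjusted over all genes tested, gave p under 0.05.

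Transcripts of the sort markers followed the sort, which is no independent finding since the proteins chose the cells. Cd27 (chr6:125232622-125237010, GRCm38), a receptor of the TNF receptor family, lay between 296 and 375 CPM in the CD27+CD69+ libraries, with a median of 341, and between 34.8 and 149 CPM in the CD11b+CD69- libraries, with a median of 85.4. Itgam (chr7:128062640-128118491) lay between 0 and 13.7 CPM in the CD27+CD69+ libraries, with a median of 3.03, and between 59.8 and 133 CPM in the CD11b+CD69- libraries, with a median of 83.3. Cd69 (chr6:129267325-129275436) lay between 1061 and 1417 CPM in the CD27+CD69+ libraries, with a median of 1128, and between 304 and 901 CPM in the CD11b+CD69- libraries, with a median of 589. The ranges of the populations did not overlap for any of these transcripts, yet the CD69-negative sort still held Cd69 transcript in every library, and the Cd69 difference was 0.95 (SE 0.20, edgeR adjusted p = 0.00209).

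NK cell transcripts dominated the marker genes in both populations, while lists of other cell types had lower sums, some of which differed between them. The 20 NK identity genes summed to between 23445 and 26616 CPM in CD27+CD69+ libraries and between 30937 and 32874 CPM in CD11b+CD69- libraries. T cell genes, 14 in the list, summed to between 2288 and 3671 CPM in CD27+CD69+ libraries and to between 952 and 1339 CPM in CD11b+CD69- libraries, with Cd4 at 0 counts in all 12. In CD11b+CD69- libraries Cd3d averaged 3.33 CPM, Cd3g 3.20 CPM, Cd3e 0.08 CPM and Trac 35.1 CPM. Most of the sum there came from other members, so it is no measure of T cells. The macrophage list, with 15 genes, summed to between 351 and 743 CPM in CD27+CD69+ libraries and to between 205 and 565 CPM in CD11b+CD69- libraries. Most of that sum was Ctsb, a lysosomal protease of many cell types, while Mrc1 was at 0 in both populations. Several defining genes of macrophages ran the other way at low levels, while others did not. Ms4a7 averaged 2.65 CPM in CD27+CD69+ libraries and 0 in CD11b+CD69- libraries. Aif1 averaged 2.32 against 1.90 CPM, and Cd14 1.29 against 0.741 CPM, in the same order. Complement C1qb reached at most 0.963 CPM in a CD27+CD69+ library and 16.0 CPM in a CD11b+CD69- library. Members other than Ctsb and Cd68 reached at most 7.71 CPM in a CD27+CD69+ library and 20.5 CPM in a CD11b+CD69- library. Adgre1 reached at most 0.963 CPM in a CD27+CD69+ library and 1.91 CPM in a CD11b+CD69- library. Dendritic cell genes, 14 in the list, summed to between 339.7 and 709 CPM in CD27+CD69+ libraries and to between 93.2 and 231 CPM in CD11b+CD69- libraries, with Flt3, Clec9a, Cd209a and Siglech at 0 in all 12. Most of the sum in CD27+CD69+ libraries was Bst2, Ccr7 and Itgax, none of them read here as a measure of dendritic cells. These averaged 155, 116 and 112 CPM in CD27+CD69+ libraries and 47.7, 0.941 and 91.1 CPM in CD11b+CD69- libraries. H2-Ab1 and Cd74 of this list averaged 25.6 and 60.4 CPM in CD27+CD69+ libraries and 4.52 and 6.78 CPM in CD11b+CD69- libraries.

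Genes of the fibroblast list were at 0 in CD27+CD69+ libraries other than replicate 4 (103 CPM) and replicate 6 (304 CPM). They summed to between 0 and 8.02 CPM in CD11b+CD69- libraries. Sparc and Fn1 gave most of the CD27+CD69+ sums and reached 226 and 87.0 CPM. Col3a1 reached 5.78 CPM in a CD27+CD69+ library, while Col1a1, Col1a2, Dcn, Lum and Pdgfra had no count in that population. Genes of the melanoma list reached 78.2 CPM in CD27+CD69+ replicate 4 and 391 CPM in replicate 6. They summed to 0.454 to 4.57 CPM in the other 4 libraries of that population and 0 to 5.33 CPM in CD11b+CD69- libraries. Most of the replicate 6 sum was Cd63, at 288 CPM. Dct, Mlana, Tyrp1 and Pmel reached at most 45.7, 7.22, 5.78 and 1.21 CPM in a CD27+CD69+ library, and Tyr had no count. Erythroid and platelet genes summed to 3388 CPM in CD27+CD69+ replicate 3, mostly the globin Hbb-bs, against at most 3.31 CPM in the other 11 libraries. Immunoglobulin mu transcript, Ighm, lay between 493 and 647 CPM in the CD27+CD69+ libraries, with a median of 512, and between 60.7 and 257 CPM in the CD11b+CD69- libraries, with a median of 185, while the B cell genes Pax5 and Ebf1 were at 0 throughout. The B cell receptor chain gene Cd79b averaged 2.34 CPM in CD27+CD69+ libraries and 5.40 CPM in CD11b+CD69- libraries, where it reached 18.0 CPM. Neutrophil genes did not exceed 1.02 CPM in a CD27+CD69+ library and were at 0 in every CD11b+CD69- library. The part of these other transcripts in the results below was not tested, apart from the fits named with them.

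**Figure D1:**
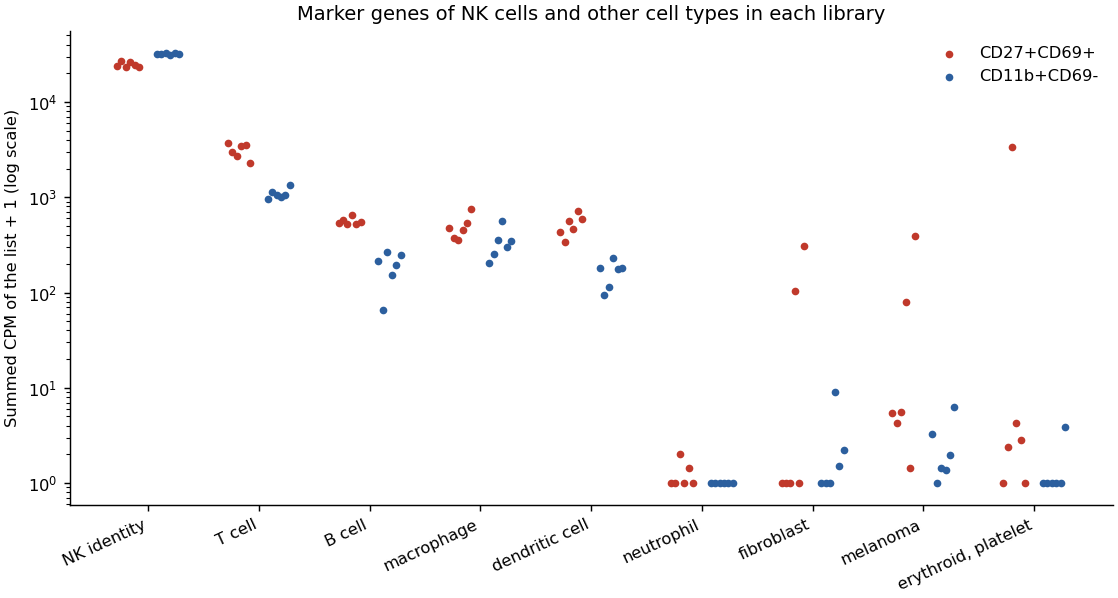
Summed CPM plus 1 (log axis) of marker gene lists for NK cells and other cell types in each of 6 CD27+CD69+ (red, left) and 6 CD11b+CD69- (blue, right) libraries, 1 point per library. NK identity genes have the highest sums in every library, T cell sums do not overlap between the populations, and single CD27+CD69+ libraries stand apart for fibroblast, melanoma and erythroid genes.

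CD27+CD69+ libraries held 1823628 to 2427734 counts and CD11b+CD69- libraries 2108899 to 2671533. Genes with a count numbered 12710 ± 311 in CD27+CD69+ libraries and 11850 ± 150 in CD11b+CD69- libraries. Mitochondrially encoded transcripts made up 0.975% to 1.25% of counts in CD27+CD69+ libraries and 0.668% to 0.871% in CD11b+CD69- libraries, so that this share, which can follow RNA quality, moved with the population. The first principal component of the 12 libraries held 24.7% of the variance and the second 8.89%.

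Over 1 in 10 expressed genes differed. Of 10536 genes tested, 1159 passed the threshold, which is 11.0% of them, and 2491 had an unadjusted p under 0.05. In CD27+CD69+ cells 673 genes (6.39%) were higher and 486 (4.61%) lower, and the median difference over all genes tested was 0.02. Of the calls, 377 higher and 237 lower genes differed by more than 2-fold. The median size was 1.15 among the higher and -0.97 among the lower genes. Ranges of the 6 and 6 libraries did not overlap for 766 genes (7.27% of those tested), of which 375 were called higher and 278 called lower. The higher genes included 95 with no count in any CD11b+CD69- library, and the lower genes 7 with no count in any CD27+CD69+ library. Without CD27+CD69+ replicates 4 and 6 the counts were 453 higher and 322 lower. With the mitochondrial level as a covariate they were 318 higher and 208 lower.

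**Figure D2:**
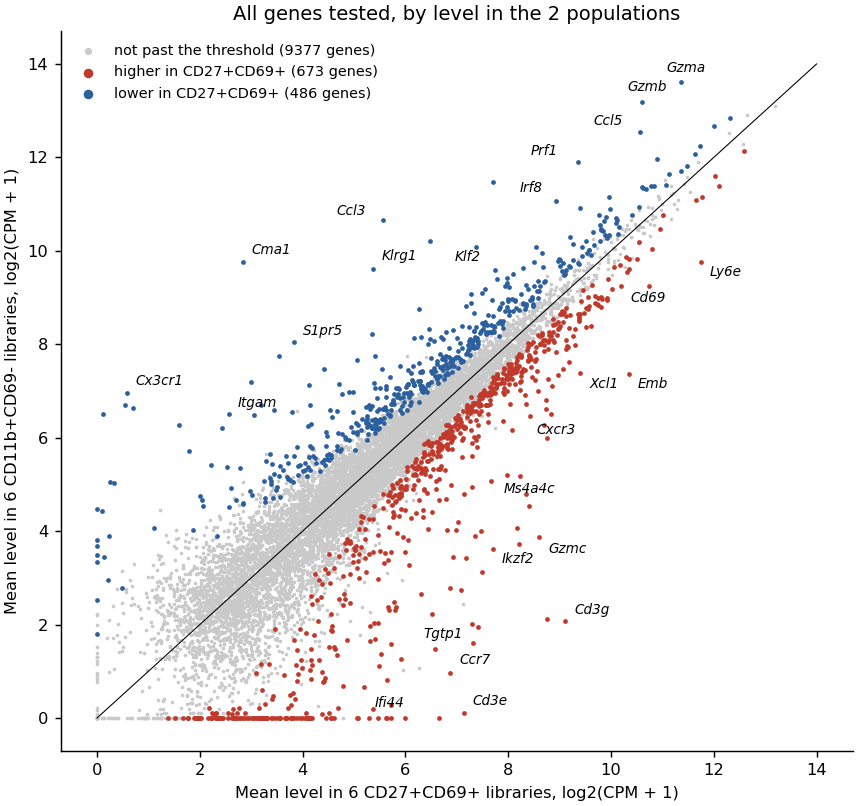
Mean level of each of 10536 genes as log2(CPM + 1), in 6 CD27+CD69+ libraries (horizontal) and in 6 CD11b+CD69- libraries (vertical), with 673 genes higher in CD27+CD69+ in red, 486 lower in blue and the rest in grey. Gzma, Gzmb, Prf1, Ccl3 and Ccl5 lie above the line of equal level, and Emb, Ly6e, Cd3g and Cd3e lie below it.

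**Figure D3:**
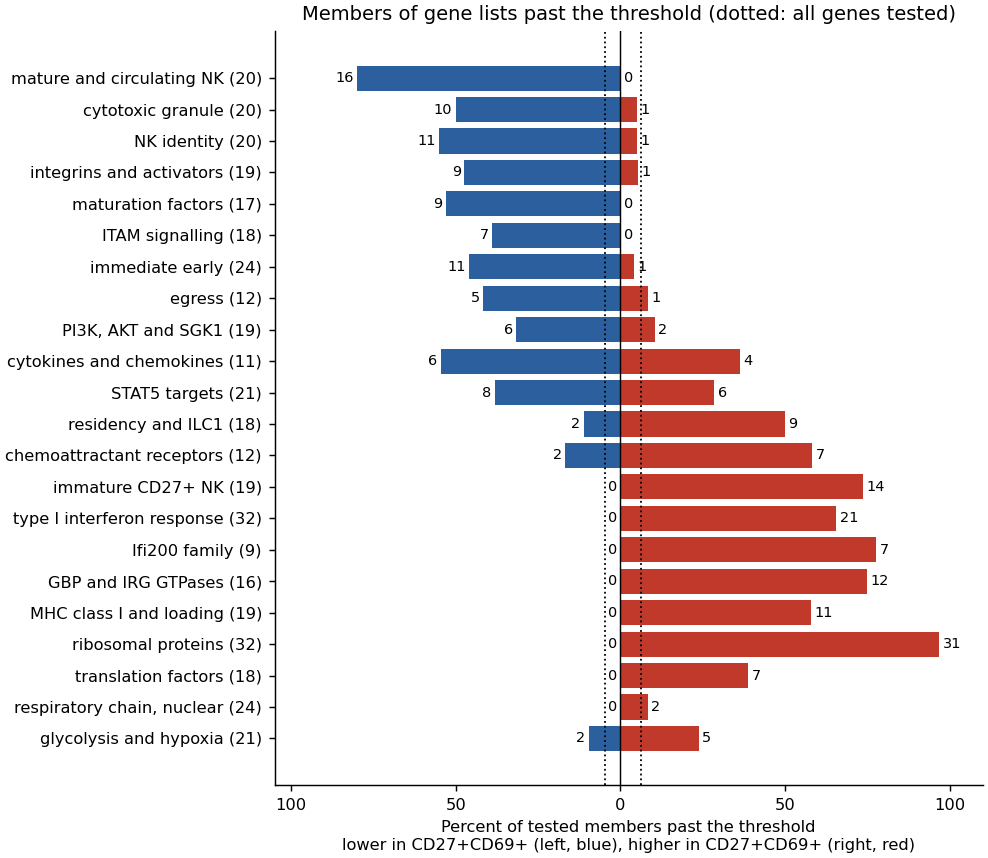
Percent of tested members past the threshold in 22 gene lists, lower in CD27+CD69+ to the left (blue) and higher to the right (red), with the number of members beside each bar and the number tested in brackets. Dotted lines mark the share over all genes tested, 4.61% lower and 6.39% higher.

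Genes of mature, circulating NK cells were lower in CD27+CD69+ cells, 16 of 20 tested, and none was higher. The list holds the sort marker gene Itgam, and without it 15 of 19 were lower. Its members, like those of the other lists, were chosen with earlier results of these data known. Such counts therefore describe the data and are no independent test. Each count of called list members, here and below, stands beside 6.39% higher and 4.61% lower over all genes tested. The median difference of the whole list was -2.44, beside 0.02 over all genes. The mast cell chymase gene Cma1, a serine protease, lay between 0 and 17.7 CPM in the CD27+CD69+ libraries, with a median of 3.55, and between 686 and 1171 CPM in the CD11b+CD69- libraries, with a median of 826. The aspartic protease gene Cym had a lowest, median and highest level of 0, 0 and 2.75 CPM in CD27+CD69+ libraries and of 58.3, 102 and 148 CPM in CD11b+CD69- libraries. Neither gene's ranges overlapped, with log2 difference -7.13, SE 0.56, edgeR adjusted p = 3.06e-09 for Cma1 and log2 difference -7.78, SE 0.95, edgeR adjusted p = 1.30e-06 for Cym. Klrg1, an inhibitory receptor for cadherins that marks terminally mature NK cells, lay between 2.03 and 115 CPM in the CD27+CD69+ libraries, with a median of 30.2, and between 575 and 1043 CPM in the CD11b+CD69- libraries, with a median of 753. Cx3cr1, the fractalkine receptor of patrolling lymphocytes, averaged 0.493 ± 0.963 CPM in CD27+CD69+ libraries and 124 ± 67.9 CPM in CD11b+CD69- libraries, and ranges overlapped for neither receptor (edgeR adjusted p = 5.66e-06 for Klrg1 and 2.33e-05 for Cx3cr1). Zeb2, which encodes a repressor required for late maturation, averaged 20.4 ± 17.7 CPM in CD27+CD69+ libraries and 176 ± 45.3 CPM in CD11b+CD69- libraries (log2 difference -3.11, SE 0.45, edgeR adjusted p = 1.78e-05). Gzma, a granzyme, Irf8, an interferon regulatory factor, and Spn, the sialoglycoprotein CD43, fell as well, by 2.25, 2.14 and 1.40 on the log2 scale. Emilin2, an extracellular matrix glycoprotein, averaged 2.46 ± 3.84 CPM in CD27+CD69+ against 51.8 ± 26.4 CPM in CD11b+CD69- libraries (edgeR adjusted p = 0.00278).

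Of the 20 largest falls, several lie outside the named maturation genes. Entpd1, the ectonucleotidase CD39 that degrades extracellular ATP, lay between 4.08 and 18.8 CPM in the CD27+CD69+ libraries, with a median of 10.8, and between 149 and 287 CPM in the CD11b+CD69- libraries, with a median of 210.3. Its ranges did not overlap, and the difference was -4.33 (SE 0.40, edgeR adjusted p = 1.89e-08). Fcgr2b, the inhibitory Fc receptor for IgG, averaged 7.36 ± 11.0 CPM in CD27+CD69+ libraries and 88.7 ± 28.5 CPM in CD11b+CD69- libraries (edgeR adjusted p = 6.10e-04). Gpx8, a glutathione peroxidase family member of the endoplasmic reticulum, averaged 2.01 ± 4.91 CPM in CD27+CD69+ against 76.3 ± 25.7 CPM in CD11b+CD69- libraries (edgeR adjusted p = 8.62e-05). Cdk14, a cyclin-dependent kinase, averaged 4.36 ± 5.12 CPM in CD27+CD69+ libraries and 72.6 ± 21.1 CPM in CD11b+CD69- libraries, and Cdc20b, a CDC20 family gene, fell as well (edgeR adjusted p = 3.93e-07). Ptgs1, cyclooxygenase 1 of prostaglandin synthesis, had no count in CD27+CD69+ libraries and was at least 88.3-fold lower there, where the bound takes 3 counts summed over all 6 libraries in place of 0. It averaged 21.1 ± 20.0 CPM in CD11b+CD69- libraries and was at 0 in replicate 5 (edgeR adjusted p = 0.00305). Tmtc1, an endoplasmic reticulum glycosyltransferase, Rhpn1, and Gp1bb, a platelet adhesion receptor chain whose exons overlap Sept5, had 1 to 3 counts in all CD27+CD69+ libraries. For Rhpn1 the ratio of CD11b+CD69- to CD27+CD69+ counts was 201, with a 95% interval from 55.2 to 1662. As3mt, a methyltransferase of arsenic metabolism, had among the smallest p-values, with a lowest, median and highest level of 25.3, 44.0 and 51.3 CPM in CD27+CD69+ libraries and of 215, 309 and 358 CPM in CD11b+CD69- libraries, and its ranges did not overlap (log2 difference -2.90, SE 0.22, edgeR adjusted p = 4.80e-10).

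Genes of exit from tissue and of integrin adhesion were lower in CD27+CD69+ cells. Of 12 egress genes 5 were lower and 1 higher, and of 19 integrin and integrin activation genes 9 were lower and 1 higher, or 8 of 18 lower without the sort marker gene Itgam. S1pr5, the sphingosine 1-phosphate receptor that NK cells use to leave bone marrow and lymph nodes, lay between 0 and 28.4 CPM in the CD27+CD69+ libraries, with a median of 13.2, and between 178 and 391 CPM in the CD11b+CD69- libraries, with a median of 240.2. Klf2, the transcription factor that sustains sphingosine 1-phosphate receptor expression in lymphocytes, lay between 154 and 257 CPM in the CD27+CD69+ libraries, with a median of 214, and between 733 and 829.6 CPM in the CD11b+CD69- libraries, with a median of 753. The ranges were apart for both, with log2 difference -4.32, SE 0.48, edgeR adjusted p = 3.30e-07 for S1pr5 and log2 difference -1.85, SE 0.14, edgeR adjusted p = 4.04e-10 for Klf2. Arhgef1, a guanine nucleotide exchange factor downstream of G protein coupled receptors, fell by 0.83 on the log2 scale. The 1 egress list member that rose was Ccr7, the lymph node homing receptor, described with the chemokine receptors. The count of lower egress genes was 3 without CD27+CD69+ replicate 2, 3 without replicates 4 and 6 together, and 2 with the mitochondrial covariate, which left S1pr5 and Klf2 among the calls.

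The integrin genes that fell encode chains and their inside-out activators. Itgb2, the beta 2 chain that pairs with CD11b and CD11a, averaged 672 ± 121 CPM in CD27+CD69+ libraries and 1929.7 ± 217 CPM in CD11b+CD69- libraries (log2 difference -1.52, SE 0.20, edgeR adjusted p = 2.94e-06). Itgal, the CD11a chain, and Itga2, the collagen-binding chain CD49b used to define mature NK cells, fell by 0.91 and 1.82 on the log2 scale. Rasgrp2, an exchange factor that loads the GTPase Rap1, lay between 4.96 and 19.0 CPM in the CD27+CD69+ libraries, with a median of 8.76, and between 75.8 and 112 CPM in the CD11b+CD69- libraries, with a median of 98.5. Rap1b, the GTPase itself, lay between 846 and 1105 CPM in the CD27+CD69+ libraries, with a median of 1012, and between 1998 and 2625 CPM in the CD11b+CD69- libraries, with a median of 2271. The ranges of both genes were apart (log2 difference -3.26, SE 0.34, edgeR adjusted p = 1.12e-07 for Rasgrp2, and log2 difference -1.19, SE 0.10, edgeR adjusted p = 3.04e-09 for Rap1b). Rap1gap2, which switches Rap1 off, averaged 4.75 ± 3.68 CPM in CD27+CD69+ against 40.7 ± 17.3 CPM in CD11b+CD69- libraries. Tln1, talin 1, which links integrin tails to actin, averaged 165 ± 31.9 CPM in CD27+CD69+ libraries and 329.9 ± 44.6 CPM in CD11b+CD69- libraries (edgeR adjusted p = 4.61e-04). Itgb3, the beta 3 chain, was the integrin gene that rose (49.8 ± 25.4 CPM in CD27+CD69+ libraries and 9.37 ± 11.7 CPM in CD11b+CD69- libraries, edgeR adjusted p = 0.00998), and its ranges overlapped. It lost the call in a fit to the 12 libraries with a macrophage covariate. A further member was higher without CD11b+CD69- replicate 1, 2 in all.

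Genes of less mature CD27+ NK cells were higher, 14 of 19 tested with none lower, and a median difference of 2.43. The 14 include the sort marker gene Cd27 and the T cell gene Cd3e, and without both 12 of 17 were higher. Summed T cell markers, 2288 to 3671 CPM in CD27+CD69+ libraries and 952 to 1339 CPM in CD11b+CD69- libraries, moved with this list, and their part in it was not tested. Emb, embigin, a glycoprotein that escorts monocarboxylate transporters to the surface, lay between 1125 and 1415 CPM in the CD27+CD69+ libraries, with a median of 1339, and between 97.4 and 294 CPM in the CD11b+CD69- libraries, with a median of 132. Ikzf2, the zinc finger transcription factor Helios, lay between 151 and 275 CPM in the CD27+CD69+ libraries, with a median of 207, and between 7.38 and 17.3 CPM in the CD11b+CD69- libraries, with a median of 10.8. The populations were apart for both, with log2 difference 2.99, SE 0.21, edgeR adjusted p = 1.43e-10 for Emb and log2 difference 4.19, SE 0.35, edgeR adjusted p = 2.74e-09 for Ikzf2. Il7r, the alpha chain of the interleukin-7 receptor, averaged 116 ± 54.4 CPM in CD27+CD69+ libraries and 5.83 ± 7.37 CPM in CD11b+CD69- libraries. Ltb, lymphotoxin beta of the TNF family, averaged 288 ± 87.8 CPM in CD27+CD69+ libraries and 15.8 ± 11.7 CPM in CD11b+CD69- libraries, and Tnfsf10, the death ligand TRAIL, averaged 43.3 ± 12.5 CPM in CD27+CD69+ libraries and 3.11 ± 3.47 CPM in CD11b+CD69- libraries. All 3 passed the threshold (edgeR adjusted p = 9.73e-04 for Il7r, 1.08e-07 for Ltb and 5.51e-04 for Tnfsf10). Slamf6, an activating receptor that binds itself on other cells, averaged 121 ± 26.6 CPM in CD27+CD69+ against 9.97 ± 17.8 CPM in CD11b+CD69- libraries. Thy1, the GPI-anchored protein CD90, Cd160, a receptor for HVEM, and Ctla2a, a cysteine protease inhibitor, rose by 2.15, 2.80 and 1.18 on the log2 scale. Kit, the stem cell factor receptor, averaged 50.3 ± 29.4 CPM in CD27+CD69+ libraries and 3.96 ± 3.21 CPM in CD11b+CD69- libraries, and its ranges overlapped (edgeR adjusted p = 0.00108).

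Residency genes shared with type 1 innate lymphoid cells, which stay in tissue, rose in 9 of 18 tested and fell in 2, with a median difference of 1.29. Cxcr6, the receptor for CXCL16 that retains lymphocytes in liver and tumours, lay between 47.6 and 299 CPM in the CD27+CD69+ libraries, with a median of 107, and between 0 and 10.4 CPM in the CD11b+CD69- libraries, with a median of 0. Its ranges did not overlap (log2 difference 5.66, SE 0.99, edgeR adjusted p = 3.27e-04). Inpp4b, a phosphoinositide phosphatase, averaged 77.5 ± 47.3 CPM in CD27+CD69+ libraries and 5.28 ± 7.56 CPM in CD11b+CD69- libraries (log2 difference 3.86, SE 0.77, edgeR adjusted p = 0.001). Ly6e, a GPI-anchored protein induced by interferons, lay between 3059 and 3985 CPM in the CD27+CD69+ libraries, with a median of 3329.6, and between 501 and 1057 CPM in the CD11b+CD69- libraries, with a median of 939, with no overlap (log2 difference 1.98, SE 0.15, edgeR adjusted p = 3.09e-10). Ahr, the aryl hydrocarbon receptor that maintains tissue lymphocytes, and Hopx, a homeodomain cofactor, rose by 1.89 and 0.70 on the log2 scale. Runx3, a transcription factor of cytotoxic lymphocytes, and Bhlhe40, a transcription factor that sustains residency in CD8 T cells, fell by 0.76 and 0.77, and Runx3 lost its call without CD27+CD69+ replicate 2 or replicate 6. Counts of higher and lower residency genes were 7 and 1 without CD27+CD69+ replicate 2, 9 and 1 without replicate 6, 7 and 1 without replicates 4 and 6, and 7 and 0 with the mitochondrial covariate.

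**Figure D4:**
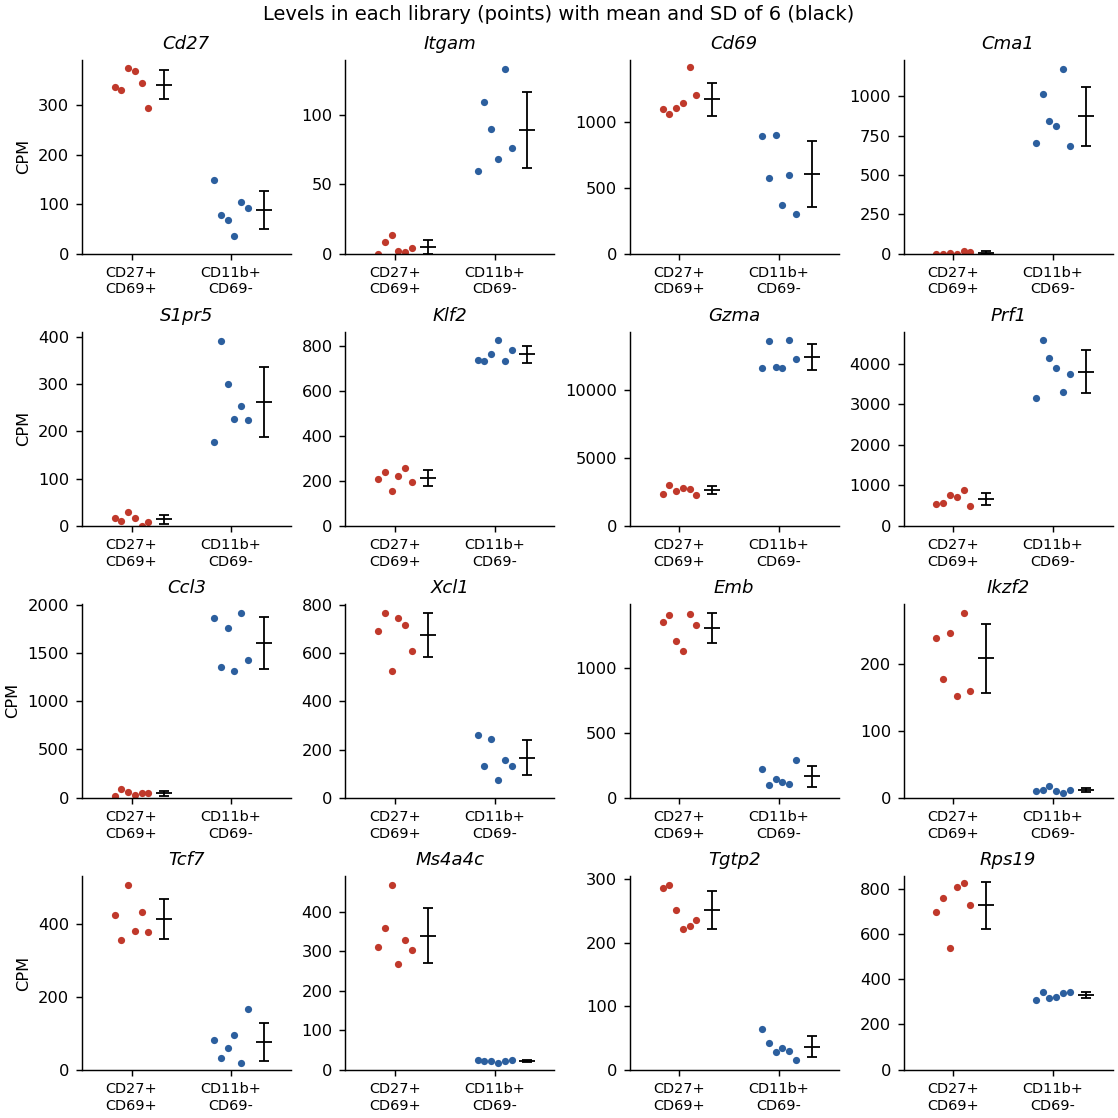
CPM of 16 genes in each of 6 CD27+CD69+ (red, left) and 6 CD11b+CD69- (blue, right) libraries, with mean and SD in black, each panel on its own linear axis from 0. The populations are apart in all 16 panels.

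Receptors for chemoattractants were higher in 7 of 12 tested and lower in 2, beside 6.39% and 4.61% of all genes tested. Cxcr3, the receptor for the interferon-induced chemokines CXCL9 and CXCL10, lay between 298 and 576 CPM in the CD27+CD69+ libraries, with a median of 467, and between 38.6 and 149 CPM in the CD11b+CD69- libraries, with a median of 89.1. Its ranges were apart (log2 difference 2.34, SE 0.28, edgeR adjusted p = 1.00e-06). Ccr7 had a lowest, median and highest level of 33.1, 101 and 289 CPM in CD27+CD69+ libraries and of 0, 0 and 5.65 CPM in CD11b+CD69- libraries, a wide spread within CD27+CD69+ libraries, and its ranges did not overlap (edgeR adjusted p = 1.30e-04). Ccr8, the receptor for CCL1, had no count in CD11b+CD69- libraries and averaged 32.8 ± 19.8 CPM in CD27+CD69+ libraries, at least 153-fold higher (edgeR adjusted p = 8.45e-04). Gpr183, a receptor for oxysterols that positions lymphocytes, averaged 296 ± 83.6 CPM in CD27+CD69+ libraries and 12.1 ± 8.74 CPM in CD11b+CD69- libraries (log2 difference 4.61, SE 0.42, edgeR adjusted p = 1.54e-08). Ccr2, the receptor for CCL2, averaged 970.3 ± 145 CPM in CD27+CD69+ against 494 ± 158 CPM in CD11b+CD69- libraries (log2 difference 0.97, SE 0.17, edgeR adjusted p = 1.68e-04). The members that fell were Cx3cr1, given above, and Ptger4, the prostaglandin E2 receptor EP4, which averaged 26.2 ± 10.1 CPM in CD27+CD69+ libraries and 121 ± 39.0 CPM in CD11b+CD69- libraries (log2 difference -2.21, SE 0.30, edgeR adjusted p = 5.87e-06).

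Transcription factors of maturation and of immature cells moved in opposite directions. Of 17 maturation factors 9 were lower and none higher, whereas 4 of 14 factors of immature NK and innate lymphoid cells were higher and none lower. Irf8, an interferon regulatory factor family member, lay between 401 and 641 CPM in the CD27+CD69+ libraries, with a median of 475, and between 1898 and 2393 CPM in the CD11b+CD69- libraries, with a median of 2134. Prdm1, encoding BLIMP1, a transcriptional repressor that promotes terminal differentiation of lymphocytes, lay between 8.48 and 36.6 CPM in the CD27+CD69+ libraries, with a median of 13.6, and between 37.0 and 158 CPM in the CD11b+CD69- libraries, with a median of 102. Neither gene's ranges overlapped (log2 difference -2.14, SE 0.16, edgeR adjusted p = 4.04e-10 for Irf8 and log2 difference -2.62, SE 0.42, edgeR adjusted p = 5.85e-05 for Prdm1). Tbx21, encoding T-bet, the T-box factor of effector NK cells, averaged 206 ± 33.8 CPM in CD27+CD69+ libraries and 494 ± 57.8 CPM in CD11b+CD69- libraries (log2 difference -1.26, SE 0.24, edgeR adjusted p = 5.11e-04). Its partner Eomes, which was not past the threshold, averaged 252 ± 37.1 CPM in CD27+CD69+ libraries and 321 ± 28.4 CPM in CD11b+CD69- libraries, with a difference of -0.35 (SE 0.15, edgeR adjusted p = 0.155). Id2, an inhibitor of E proteins needed by all NK cells, fell by 0.73 on the log2 scale. Tcf7, encoding TCF1, a factor of early NK and memory-like lymphocytes, lay between 355 and 507 CPM in the CD27+CD69+ libraries, with a median of 403, and between 19.7 and 168 CPM in the CD11b+CD69- libraries, with a median of 70.0, with ranges apart (log2 difference 2.43, SE 0.31, edgeR adjusted p = 3.27e-06). Zbtb32, a zinc finger repressor, had no count in CD11b+CD69- libraries and averaged 22.4 ± 15.3 CPM in CD27+CD69+ libraries, at least 100.5-fold higher (edgeR adjusted p = 9.04e-04). With the mitochondrial covariate 0 and 5 maturation factors were higher and lower, and Tbx21 lost its call. A single maturation factor was higher without CD27+CD69+ replicate 6 and without CD11b+CD69- replicate 1, 4 or 6.

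The killing machinery was lower in CD27+CD69+ cells, 10 of 20 genes tested, with 1 higher and a median difference of -0.65. Prf1, perforin, which opens pores in target cells, lay between 496 and 879 CPM in the CD27+CD69+ libraries, with a median of 626, and between 3157 and 4575 CPM in the CD11b+CD69- libraries, with a median of 3823. Gzma, granzyme A, lay between 2282 and 3040.4 CPM in the CD27+CD69+ libraries, with a median of 2648, and between 11670.3 and 13728 CPM in the CD11b+CD69- libraries, with a median of 12040.2. Gzmb, granzyme B, which activates caspases in the target cell, lay between 889 and 3324 CPM in the CD27+CD69+ libraries, with a median of 1269, and between 6444 and 10720.1 CPM in the CD11b+CD69- libraries, with a median of 9965. The populations were apart for all 3 genes, by -2.54 (SE 0.19, edgeR adjusted p = 4.04e-10) for Prf1, -2.25 (SE 0.11, edgeR adjusted p = 7.48e-14) for Gzma, and -2.59 (SE 0.28, edgeR adjusted p = 6.37e-07) for Gzmb. Serpinb9, an inhibitor of granzyme B that protects the killer cell, averaged 1905 ± 306 CPM in CD27+CD69+ libraries and 3978 ± 498 CPM in CD11b+CD69- libraries (log2 difference -1.06, SE 0.13, edgeR adjusted p = 8.58e-07). Its relative Serpinb9b averaged 88.3 ± 118 CPM in CD27+CD69+ libraries and 1186 ± 185 CPM in CD11b+CD69- libraries with a difference of -3.76 (SE 0.51). Ctsc, the protease that activates pro-granzymes, and Nkg7, a granule membrane protein needed for exocytosis, fell by 0.65 and 0.66 on the log2 scale. Gzmc, granzyme C, rose instead, with a lowest, median and highest level of 27.9, 261 and 1172 CPM in CD27+CD69+ libraries and of 0, 11.1 and 36.9 CPM in CD11b+CD69- libraries, and its ranges overlapped (log2 difference 4.80, SE 0.77, edgeR adjusted p = 1.48e-04, not past the threshold with limma-voom). A further granule gene was higher without CD11b+CD69- replicate 4, 2 in all. Granzyme genes are close paralogues, and how the authors' counting divided shared reads is not known. Prf1, Gzma and Gzmb kept their calls with the mitochondrial covariate, the log2 summed level of mitochondrially encoded genes. That summed level moved with the population, at 7661 to 10489 CPM in CD27+CD69+ libraries and 5403 to 6601 CPM in CD11b+CD69- libraries. Its part in these falls was not tested.

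Secreted factors changed in both directions, with 4 of 11 cytokine and chemokine genes higher and 6 lower. The CC chemokine genes on chromosome 11 fell together. Ccl3 (chr11:83647844-83649355), encoding MIP-1 alpha, lay between 13.7 and 86.9 CPM in the CD27+CD69+ libraries, with a median of 48.7, and between 1314 and 1912 CPM in the CD11b+CD69- libraries, with a median of 1593. Ccl4 (chr11:83662584-83664683), encoding MIP-1 beta, lay between 92.0 and 318 CPM in the CD27+CD69+ libraries, with a median of 212, and between 1998 and 3518 CPM in the CD11b+CD69- libraries, with a median of 2962. Ccl5 (chr11:83525778-83530518), encoding RANTES, lay between 1266 and 1904 CPM in the CD27+CD69+ libraries, with a median of 1481, and between 5684 and 6393 CPM in the CD11b+CD69- libraries, with a median of 5916. The ranges were apart for all 3, with differences of -5.11 (SE 0.37, edgeR adjusted p = 7.31e-10) for Ccl3, -3.79 (SE 0.36, edgeR adjusted p = 8.65e-08) for Ccl4, and -1.98 (SE 0.13, edgeR adjusted p = 4.30e-11) for Ccl5. Ccl9 (chr11:83572919-83578636), another CC chemokine, held 1 count in all CD27+CD69+ libraries, and the ratio of CD11b+CD69- to CD27+CD69+ counts was 1172, with a 95% interval from 209.9 to 46308. Ifng, interferon gamma, averaged 145 ± 19.5 CPM in CD27+CD69+ libraries and 449 ± 60.3 CPM in CD11b+CD69- libraries (log2 difference -1.64, SE 0.21, edgeR adjusted p = 2.82e-06), and Osm, the interleukin-6 family cytokine oncostatin M, averaged 41.4 ± 22.3 CPM in CD27+CD69+ against 215 ± 61.8 CPM in CD11b+CD69- libraries (log2 difference -2.38, SE 0.39, edgeR adjusted p = 8.85e-05).

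Xcl1, the chemokine that recruits cross-presenting dendritic cells through XCR1, went the other way and lay between 528 and 769 CPM in the CD27+CD69+ libraries, with a median of 703, and between 74.9 and 259.9 CPM in the CD11b+CD69- libraries, with a median of 143. Its ranges did not overlap (log2 difference 2.03, SE 0.24, edgeR adjusted p = 1.07e-06). Cxcl10, an interferon-induced ligand of CXCR3, averaged 322 ± 258 CPM in CD27+CD69+ libraries and 26.6 ± 24.8 CPM in CD11b+CD69- libraries, with overlapping ranges (edgeR adjusted p = 0.00894), and Spp1, osteopontin, averaged 162 ± 132 CPM in CD27+CD69+ libraries and 13.9 ± 7.13 CPM in CD11b+CD69- libraries (edgeR adjusted p = 0.0159). Neither of these passed the threshold with limma-voom, and 2 cytokine genes were then higher. Tnf, the inflammatory cytokine TNF alpha, rose with a difference of 3.03 (SE 0.90, edgeR adjusted p = 0.027), a call lost without CD27+CD69+ replicate 1 or CD11b+CD69- replicate 2. Ifngas1, a long noncoding RNA gene beside Ifng, rose while Ifng fell, and averaged 35.5 ± 14.7 CPM in CD27+CD69+ libraries and 0.574 ± 1.41 CPM in CD11b+CD69- libraries (edgeR adjusted p = 5.75e-05). Flt3l, the growth factor of dendritic cells that the study's title names, did not pass the threshold. It averaged 59.1 ± 14.7 CPM in CD27+CD69+ libraries and 50.1 ± 10.2 CPM in CD11b+CD69- libraries, with a difference of 0.24 (SE 0.30, edgeR adjusted p = 0.708) and overlapping ranges.

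NK identity genes were lower on balance in CD27+CD69+ cells, 11 of 20 tested against 1 higher, with a median difference of -0.39. Klrb1c, the receptor NK1.1 that defines NK cells in B6 mice, lay between 853 and 1187 CPM in the CD27+CD69+ libraries, with a median of 983, and between 1829 and 2002 CPM in the CD11b+CD69- libraries, with a median of 1884. Ncr1, the activating receptor NKp46, lay between 1203 and 1901 CPM in the CD27+CD69+ libraries, with a median of 1559, and between 2337 and 2859.6 CPM in the CD11b+CD69- libraries, with a median of 2591. The ranges were apart for both (log2 difference -0.91, SE 0.11, edgeR adjusted p = 1.31e-06 for Klrb1c, and log2 difference -0.77, SE 0.10, edgeR adjusted p = 6.74e-06 for Ncr1). Fcer1g, an adaptor with an activation motif (ITAM) that signals for NKp46 and Fc receptors, averaged 1823 ± 121 CPM in CD27+CD69+ libraries and 2676 ± 116 CPM in CD11b+CD69- libraries (log2 difference -0.55, SE 0.10, edgeR adjusted p = 1.73e-04). Cd7, an immunoglobulin family receptor of lymphocytes, was the member that rose, 584 ± 78.8 CPM in CD27+CD69+ against 197 ± 55.3 CPM in CD11b+CD69- libraries (log2 difference 1.56, SE 0.17, edgeR adjusted p = 2.00e-07). Under the mitochondrial covariate 1 and 7 members were higher and lower.

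Receptors that set the balance of activation moved both ways. Of 17 activating receptors 4 were higher and 5 lower, and of 13 inhibitory receptors 5 were higher and 4 lower. The shares over all genes tested were 6.39% higher and 4.61% lower. Crtam, a receptor that binds the adhesion molecule CADM1, averaged 134 ± 20.4 CPM in CD27+CD69+ libraries and 5.65 ± 8.37 CPM in CD11b+CD69- libraries (log2 difference 4.59, SE 0.64, edgeR adjusted p = 1.23e-05). Cd28, a costimulatory receptor best known from T cells, averaged 322 ± 114 CPM in CD27+CD69+ libraries and 119 ± 61.5 CPM in CD11b+CD69- libraries, with overlapping ranges (log2 difference 1.43, SE 0.29, edgeR adjusted p = 0.00131). Ctla4, which competes for the ligands of CD28, averaged 179.9 ± 88.3 CPM in CD27+CD69+ libraries and 7.72 ± 6.89 CPM in CD11b+CD69- libraries (log2 difference 4.54, SE 0.76, edgeR adjusted p = 1.66e-04). Cd96, a receptor of the nectin-binding family, rose by 1.11 on the log2 scale. Among the Ly49 receptors, which bind class I MHC, Klra1 averaged 573 ± 123 CPM in CD27+CD69+ libraries and 243 ± 75.0 CPM in CD11b+CD69- libraries and rose (edgeR adjusted p = 0.0036). Klra3 averaged 160.4 ± 43.2 CPM in CD27+CD69+ libraries and 405 ± 107 CPM in CD11b+CD69- libraries and fell (edgeR adjusted p = 0.00128), as did Klra9, which averaged 374 ± 93.7 CPM in CD27+CD69+ against 1085 ± 128 CPM in CD11b+CD69- libraries (edgeR adjusted p = 7.88e-06). Ly49 genes are near-identical in part, so reads may be divided among them with error. Klrb1b, an inhibitory lectin-like receptor, averaged 236 ± 46.3 CPM in CD27+CD69+ libraries and 472 ± 70.2 CPM in CD11b+CD69- libraries (edgeR adjusted p = 9.04e-06). Higher and lower activating receptors numbered 4 and 2 with the mitochondrial covariate.

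Of 18 genes of ITAM signalling 7 were lower and none higher, beside 4.61% and 6.39% of all genes tested. Besides Fcer1g they included Tyrobp, the adaptor DAP12, and Fyn, a Src family kinase, which fell by 0.35 and 0.92 on the log2 scale. Syk, the kinase that docks on phosphorylated ITAMs, averaged 37.3 ± 17.8 CPM in CD27+CD69+ libraries and 87.1 ± 22.0 CPM in CD11b+CD69- libraries, with overlapping ranges (edgeR adjusted p = 0.0116). The count of lower members was 4 without CD27+CD69+ replicates 4 and 6, and 2 with the mitochondrial covariate, and 1 member was higher without CD11b+CD69- replicate 1.

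Ligands and receptors of the TNF family were more often higher than lower. Of 8 ligands 4 were higher and 1 lower, and of 10 receptors 3 were higher and 1 lower. Over all genes tested 6.39% were higher and 4.61% lower, and a single lower call in so short a list is too few to set against that share. Of those receptors 1 was the sort marker gene Cd27, which leaves 2 of 9 higher. Fasl, the ligand that triggers death through Fas, was the ligand that fell (866 ± 121 CPM in CD27+CD69+ libraries and 1745 ± 164 CPM in CD11b+CD69- libraries, log2 difference -1.01, SE 0.12, edgeR adjusted p = 1.08e-06). Tnfrsf26, a mouse gene of the TNF receptor family, averaged 72.8 ± 29.0 CPM in CD27+CD69+ libraries and 19.9 ± 11.4 CPM in CD11b+CD69- libraries (log2 difference 1.87, SE 0.35, edgeR adjusted p = 4.56e-04), and Tnfrsf18, the costimulatory receptor GITR, averaged 364 ± 68.7 CPM in CD27+CD69+ against 200.1 ± 30.8 CPM in CD11b+CD69- libraries (log2 difference 0.86, SE 0.17, edgeR adjusted p = 8.42e-04). The count of higher ligands was 2 without CD11b+CD69- replicate 2 and 2 without CD27+CD69+ replicates 4 and 6.

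Interleukin-2 and interleukin-15 signalling is named in the study's title. Of 14 genes of its receptors, kinases and regulators 3 were higher, beside 6.39% of all genes tested, and none lower, with a median difference of 0.01. Il2ra, the high-affinity alpha chain CD25, lay between 14.2 and 39.7 CPM in the CD27+CD69+ libraries, with a median of 22.3, and between 0 and 10.7 CPM in the CD11b+CD69- libraries, with a median of 0, without overlap (log2 difference 3.70, SE 1.06, edgeR adjusted p = 0.0213). Il15ra, the alpha chain that presents interleukin-15, averaged 71.3 ± 31.7 CPM in CD27+CD69+ libraries and 30.6 ± 15.7 CPM in CD11b+CD69- libraries, with overlapping ranges (log2 difference 1.22, SE 0.38, edgeR adjusted p = 0.0378), a call lost without CD27+CD69+ replicate 2, 4 or 5 and without CD11b+CD69- replicate 2, 3 or 5. Il2rb and Il2rg, the shared signalling chains, did not pass, with differences of -0.32 (SE 0.17) for Il2rb and 0.02 (SE 0.11) for Il2rg. Counts of higher and lower members were 2 and 1 without CD27+CD69+ replicate 3, 1 and 0 without replicate 4, 1 and 0 without CD11b+CD69- replicate 2, and 0 and 0 without CD27+CD69+ replicates 4 and 6 and with the mitochondrial covariate.

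Genes that STAT5 is known to induce split, with 6 of 21 higher and 8 lower, beside 6.39% and 4.61% of all genes tested. Myc, the growth transcription factor, averaged 374 ± 109 CPM in CD27+CD69+ libraries and 172 ± 36.4 CPM in CD11b+CD69- libraries (log2 difference 1.12, SE 0.18, edgeR adjusted p = 5.58e-05). Odc1, ornithine decarboxylase of polyamine synthesis, averaged 502 ± 67.2 CPM in CD27+CD69+ libraries and 161 ± 42.1 CPM in CD11b+CD69- libraries (log2 difference 1.64, SE 0.18, edgeR adjusted p = 1.97e-07), and Pim2, a survival kinase, averaged 665 ± 116 CPM in CD27+CD69+ against 369.8 ± 131 CPM in CD11b+CD69- libraries (log2 difference 0.85, SE 0.20, edgeR adjusted p = 0.00476). The genes that fell included the granule genes Prf1 and Gzmb, Osm, Id2, the cyclins Ccnd2 and Ccnd3, and the survival gene Mcl1. Ccnd3, a D-type cyclin of the G1 phase, lay between 268 and 365 CPM in the CD27+CD69+ libraries, with a median of 306, and between 603 and 970.1 CPM in the CD11b+CD69- libraries, with a median of 791, and its ranges did not overlap (log2 difference -1.34, SE 0.14, edgeR adjusted p = 9.17e-08). Among other cytokine receptors, Il18rap, the signalling chain for interleukin-18, averaged 362 ± 74.6 CPM in CD27+CD69+ libraries and 863 ± 87.4 CPM in CD11b+CD69- libraries (log2 difference -1.25, SE 0.14, edgeR adjusted p = 3.30e-07). Il12rb2, the signalling chain for interleukin-12, averaged 105 ± 25.9 CPM in CD27+CD69+ libraries and 274 ± 66.2 CPM in CD11b+CD69- libraries (log2 difference -1.38, SE 0.21, edgeR adjusted p = 3.59e-05).

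Interferon-induced genes were higher in large part. Of 32 genes of the type I interferon response 21 were higher and none lower, with a median difference of 1.83. The same held for 7 of 9 tested genes of the Ifi200 family of DNA sensors, and for 12 of 16 guanylate-binding proteins and immunity-related GTPases, which attack vacuoles of intracellular pathogens. Their median differences were 1.17 and 1.74, beside 0.02 over all genes. Promoters of 10 of these genes are shown to make the shared interferon element visible. Windows of 50 bases around it were read from RefSeq promoter sequences, which run from 250 bases before to 50 bases after the gene start, on GRCm38.p6. Capitals mark the element, GAAANNGAAA on either strand, and each sequence runs 5′ to 3′ on the strand of its gene.
Tgtp2: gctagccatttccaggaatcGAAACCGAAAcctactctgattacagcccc
Tgtp1: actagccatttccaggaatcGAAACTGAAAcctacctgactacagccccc
Igtp: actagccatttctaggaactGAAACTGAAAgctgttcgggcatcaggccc
Irgm1: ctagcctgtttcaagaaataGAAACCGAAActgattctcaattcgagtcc
Ifi211: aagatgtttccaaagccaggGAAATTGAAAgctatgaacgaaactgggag
Mndal: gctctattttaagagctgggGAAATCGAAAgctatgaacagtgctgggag
Ifi213: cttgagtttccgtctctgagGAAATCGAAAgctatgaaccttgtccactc
Bst2: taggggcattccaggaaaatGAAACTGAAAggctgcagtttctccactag
Oas1a: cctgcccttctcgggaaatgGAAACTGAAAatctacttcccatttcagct
Rsad2: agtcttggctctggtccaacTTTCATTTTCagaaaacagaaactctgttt
The windows lie on the minus strand for all but Igtp, at chr11:49064253-49064302 for Tgtp2, chr11:48992294-48992343 for Tgtp1, chr11:58199502-58199551 for Igtp (plus strand), chr11:48871415-48871464 for Irgm1 and chr1:173913054-173913103 for Ifi211. The others lie at chr1:173880194-173880243 for Mndal, chr1:173599316-173599365 for Ifi213, chr8:71537567-71537616 for Bst2, chr5:120907510-120907559 for Oas1a and chr12:26456543-26456592 for Rsad2, where the element reads on the opposite strand.

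Promoters were counted by gene, and a gene counted once if any of its promoters held the element. It occurred in 61 of 505 higher genes that matched the RefSeq promoter table (12.1%) and in 12 of 381 lower genes (3.15%). Among genes not past the threshold 247 of 7149 held it (3.46%), and 3.99% of all 27025 genes of that table. The element was found in 10 of 16 matched higher type I interferon genes, in 7 of 8 of the higher GTPases and in 6 of 7 of the higher Ifi200 genes. Over all tested members of these lists, called or not, it was in 14 of 23, 9 of 10 and 6 of 8. The element was thus common in these lists as a whole. Few of their members with a matched promoter were not called, too few to set called against uncalled members. A second set of letters, the gamma-activated site TTCNNNGAA, reads the same on both strands. It was in promoters of 11.3% of higher genes, 10.5% of lower genes, 8.10% of genes not past the threshold and 9.55% of all genes of that table. Among higher genes it was in 5 of 8 GTPase genes, 4 of 16 type I interferon genes and 0 of 7 Ifi200 genes. Over all tested members of these lists it was in 6 of 10, 5 of 23 and 0 of 8. The letters in a window are a description and do not show that a factor bound there.

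The genes behind these promoters had the following levels. Tgtp2, an immunity-related GTPase, lay between 222 and 291 CPM in the CD27+CD69+ libraries, with a median of 243, and between 16.0 and 64.4 CPM in the CD11b+CD69- libraries, with a median of 31.5. Tgtp1, its near-identical neighbour, averaged 94.1 ± 20.8 CPM in CD27+CD69+ libraries and 1.78 ± 2.29 CPM in CD11b+CD69- libraries. Both rose (log2 difference 2.82, SE 0.31, edgeR adjusted p = 3.07e-07 for Tgtp2, and edgeR adjusted p = 7.94e-07 for Tgtp1), with reads of this pair hard to divide. Igtp, which shares exons with Irgm2, averaged 426 ± 98.0 CPM in CD27+CD69+ libraries and 96.6 ± 28.1 CPM in CD11b+CD69- libraries, and Irgm1, a regulator of the GTPase family, averaged 427 ± 106 CPM in CD27+CD69+ libraries and 111 ± 50.3 CPM in CD11b+CD69- libraries. Ranges were apart for both (log2 difference 2.14, SE 0.36, edgeR adjusted p = 1.63e-04 for Igtp, and log2 difference 1.94, SE 0.28, edgeR adjusted p = 2.03e-05 for Irgm1). Gbp2, a guanylate-binding protein, averaged 165 ± 41.5 CPM in CD27+CD69+ libraries and 61.1 ± 29.3 CPM in CD11b+CD69- libraries, with overlapping ranges (log2 difference 1.44, SE 0.33, edgeR adjusted p = 0.00392). Ifi47, another of the GTPases, rose by 0.81 on the log2 scale.

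Mndal, an Ifi200 gene, averaged 352 ± 62.9 CPM in CD27+CD69+ libraries and 156 ± 17.8 CPM in CD11b+CD69- libraries (log2 difference 1.17, SE 0.14, edgeR adjusted p = 1.08e-06), and its neighbour Ifi203, which overlaps it, averaged 242 ± 33.2 CPM in CD27+CD69+ against 121 ± 26.6 CPM in CD11b+CD69- libraries (log2 difference 1.00, SE 0.19, edgeR adjusted p = 4.55e-04). The printed window of Mndal is identical in Ifi203, so close copies share promoter letters as well as reads. Ifi211 had no count in CD11b+CD69- libraries and was at least 58.5-fold higher in CD27+CD69+ libraries, where it averaged 12.8 ± 6.57 CPM (edgeR adjusted p = 5.62e-07). Ifi213 averaged 118 ± 41.0 CPM in CD27+CD69+ libraries and 30.9 ± 18.0 CPM in CD11b+CD69- libraries (log2 difference 1.93, SE 0.34, edgeR adjusted p = 2.26e-04).

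Bst2, the virus-tethering protein tetherin, lay between 128 and 183 CPM in the CD27+CD69+ libraries, with a median of 151, and between 22.6 and 60.0 CPM in the CD11b+CD69- libraries, with a median of 53.0, with ranges apart (log2 difference 1.70, SE 0.20, edgeR adjusted p = 1.08e-06). Oas1a, an oligoadenylate synthase that senses double-stranded RNA, averaged 75.9 ± 21.1 CPM in CD27+CD69+ libraries and 24.5 ± 6.38 CPM in CD11b+CD69- libraries (log2 difference 1.63, SE 0.25, edgeR adjusted p = 4.08e-05). Rsad2, the antiviral enzyme viperin, had counts in 5 of 6 CD27+CD69+ libraries, between 0 and 87.6 CPM, and none in CD11b+CD69- libraries. It was at least 179-fold higher (edgeR adjusted p = 1.39e-04). Ifi44, an interferon-induced protein, was likewise without a count in CD11b+CD69- libraries and averaged 48.0 ± 26.7 CPM in CD27+CD69+ libraries, at least 219.9-fold higher (edgeR adjusted p = 3.10e-08). Usp18, a protease that removes ISG15 and dampens interferon receptors, averaged 201 ± 117 CPM in CD27+CD69+ against 32.7 ± 20.6 CPM in CD11b+CD69- libraries (log2 difference 2.62, SE 0.41, edgeR adjusted p = 4.91e-05). Ifit3, an RNA-binding antiviral protein, averaged 91.0 ± 50.2 CPM in CD27+CD69+ libraries and 3.65 ± 8.95 CPM in CD11b+CD69- libraries (log2 difference 4.64, SE 0.92, edgeR adjusted p = 0.00117). None of the 32 genes fell, and the type I count did not move by over 1.5 times in any alternative fit.

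Genes of antigen presentation on class I MHC also rose, 11 of 19 tested with none lower and a median of 0.48. B2m, the light chain of class I molecules, averaged 6191 ± 445 CPM in CD27+CD69+ libraries and 4484 ± 227 CPM in CD11b+CD69- libraries (log2 difference 0.47, SE 0.08, edgeR adjusted p = 1.40e-04). Psmb9, an inducible catalytic subunit of the immunoproteasome, averaged 560.5 ± 46.6 CPM in CD27+CD69+ libraries and 273 ± 16.6 CPM in CD11b+CD69- libraries (log2 difference 1.04, SE 0.11, edgeR adjusted p = 1.16e-07), and Tap1, a chain of the peptide transporter that shares exon sequence with Psmb9, averaged 304 ± 66.7 CPM in CD27+CD69+ against 149 ± 29.7 CPM in CD11b+CD69- libraries (log2 difference 1.03, SE 0.19, edgeR adjusted p = 3.12e-04). Psmb8 and Psmb10, the other inducible subunits, rose by 0.76 and 0.63 on the log2 scale. Slfn1, a Schlafen family gene of lymphocyte quiescence, had no count in CD11b+CD69- libraries and averaged 43.2 ± 16.6 CPM in CD27+CD69+ libraries, at least 199-fold higher (edgeR adjusted p = 1.98e-05). The Schlafen list held 3 higher and 1 lower gene of 7 tested, beside 6.39% and 4.61% of all genes tested. Without CD27+CD69+ replicates 4 and 6 it held 2 and 0.

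Of 8 tested genes of the Ly6 and Ms4a families, small surface proteins, 6 were higher and none lower. Ms4a4c, a protein with 4 membrane spans, lay between 267 and 467 CPM in the CD27+CD69+ libraries, with a median of 318, and between 16.4 and 25.6 CPM in the CD11b+CD69- libraries, with a median of 22.7, without overlap (log2 difference 3.92, SE 0.20, edgeR adjusted p = 1.75e-13). Ms4a6b and Ms4a4b, relatives of Ms4a4c, rose by 1.32 and 0.42 on the log2 scale. Ly6a, the stem cell antigen Sca-1, averaged 170.2 ± 76.7 CPM in CD27+CD69+ libraries and 2.84 ± 3.78 CPM in CD11b+CD69- libraries (log2 difference 5.87, SE 0.86, edgeR adjusted p = 5.08e-05, not past the threshold with limma-voom). Reads may be shared within both families.

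Ribosomal protein genes were higher almost without exception. Of 32 in the list 31 passed the threshold and none fell, with a median difference of 0.73. Rps19, of the small subunit, lay between 539 and 825 CPM in the CD27+CD69+ libraries, with a median of 743, and between 309 and 342 CPM in the CD11b+CD69- libraries, with a median of 331. Rpl3, of the large subunit, lay between 678 and 1034 CPM in the CD27+CD69+ libraries, with a median of 911, and between 451 and 578 CPM in the CD11b+CD69- libraries, with a median of 491. The populations were apart for both, with log2 difference 1.14, SE 0.11, edgeR adjusted p = 6.05e-08 for Rps19 and log2 difference 0.85, SE 0.12, edgeR adjusted p = 1.25e-05 for Rpl3. Of 18 genes of translation and ribosome assembly 7 were higher and none lower, with a median of 0.55. Npm1, nucleophosmin, a nucleolar chaperone of ribosome assembly, averaged 613 ± 68.2 CPM in CD27+CD69+ libraries and 289 ± 29.9 CPM in CD11b+CD69- libraries (log2 difference 1.08, SE 0.17, edgeR adjusted p = 6.86e-05). Srm, spermidine synthase, averaged 102 ± 42.0 CPM in CD27+CD69+ against 41.3 ± 19.1 CPM in CD11b+CD69- libraries, with overlapping ranges (edgeR adjusted p = 0.00245). With the mitochondrial covariate 17 ribosomal protein genes and 3 translation genes were higher, and none was lower.

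Lists of energy metabolism differed in their share of calls, beside 6.39% higher and 4.61% lower over all genes tested. Of 24 nuclear genes of the respiratory chain 2 were higher and none lower, and of 21 genes of glycolysis and hypoxia 5 were higher and 2 lower. Of 8 mitochondrially encoded genes tested 3 were higher, with a median of 0.59. The glycolysis count moved by over 1.5 times without any single library other than CD27+CD69+ replicate 3, down to 1 higher gene without CD11b+CD69- replicate 1 or 2. The respiratory chain count was 0 or 1 without CD27+CD69+ replicate 2, 4 or 6 and without CD11b+CD69- replicate 1, 2 or 3. With the mitochondrial covariate no gene of the respiratory chain and glycolysis lists passed. That covariate is the summed level of the mitochondrially encoded genes, so their own calls cannot be read in that fit. 

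Immediate early genes, induced within minutes of stimulation, were lower in 11 of 24 and higher in 1. The shares over all genes tested were 4.61% lower and 6.39% higher. Nr4a1, a nuclear receptor that reports antigen receptor signalling in T cells, lay between 82.2 and 212 CPM in the CD27+CD69+ libraries, with a median of 159.8, and between 330.1 and 671 CPM in the CD11b+CD69- libraries, with a median of 564. Ier2, a rapidly induced nuclear protein, lay between 483 and 796 CPM in the CD27+CD69+ libraries, with a median of 551, and between 1099.7 and 1362 CPM in the CD11b+CD69- libraries, with a median of 1256. Their ranges did not overlap (log2 difference -1.82, SE 0.26, edgeR adjusted p = 1.22e-05 for Nr4a1, and log2 difference -1.10, SE 0.14, edgeR adjusted p = 2.46e-06 for Ier2). Zfp36, tristetraprolin, which destabilises cytokine mRNA, averaged 259 ± 59.0 CPM in CD27+CD69+ libraries and 594 ± 56.1 CPM in CD11b+CD69- libraries (log2 difference -1.20, SE 0.17, edgeR adjusted p = 1.27e-05), and Dusp2, a phosphatase of MAP kinases, averaged 405 ± 71.4 CPM in CD27+CD69+ libraries and 989 ± 89.1 CPM in CD11b+CD69- libraries (log2 difference -1.29, SE 0.20, edgeR adjusted p = 3.85e-05). Higher and lower members numbered 0 and 5 with the mitochondrial covariate.

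Genes of PI3 kinase signalling were lower in 6 of 19 tested and higher in 2. Pik3r1, the regulatory subunit p85 alpha, lay between 176 and 250.3 CPM in the CD27+CD69+ libraries, with a median of 222, and between 524 and 809 CPM in the CD11b+CD69- libraries, with a median of 671. Sgk1, a kinase downstream of PI3 kinase, averaged 165 ± 97.3 CPM in CD27+CD69+ libraries and 1088 ± 331 CPM in CD11b+CD69- libraries. The ranges were apart for both (log2 difference -1.62, SE 0.13, edgeR adjusted p = 1.67e-09 for Pik3r1, and log2 difference -2.72, SE 0.40, edgeR adjusted p = 4.04e-05 for Sgk1). Txnip, which restrains glucose uptake, averaged 281 ± 54.8 CPM in CD27+CD69+ against 491 ± 107 CPM in CD11b+CD69- libraries, with overlapping ranges (log2 difference -0.81, SE 0.18, edgeR adjusted p = 0.00245). The count of higher genes was 1 without CD27+CD69+ replicates 4 and 6, 1 without CD11b+CD69- replicate 1 and 1 without CD11b+CD69- replicate 5. The count of lower genes was 3 with the mitochondrial covariate and 3 with the macrophage covariate. Of 17 genes of NF-kappa B signalling 3 were higher and 4 lower, beside 6.39% and 4.61% of all genes tested. Traf1, an adaptor of TNF receptors, averaged 445 ± 70.1 CPM in CD27+CD69+ libraries and 271 ± 67.2 CPM in CD11b+CD69- libraries (log2 difference 0.71, SE 0.18, edgeR adjusted p = 0.00744), and Nfkbia, an inhibitor of NF-kappa B, fell by 0.58 on the log2 scale. Without CD27+CD69+ replicates 4 and 6 the count was 2 and 1.

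Of 11 survival genes of the BCL2 family 3 were lower, beside 4.61% of all genes tested, and none higher. Among them was Mcl1 (log2 difference -0.61), and none passed without CD27+CD69+ replicates 4 and 6. Of 22 cell cycle genes 2 were higher and 1 lower, a share near the 11.0% of all genes tested, and the higher count was 0 or 1 without any single library other than CD27+CD69+ replicates 1, 2 and 6. The member that fell was H2afz, a histone variant of proliferating cells, 406 ± 35.8 CPM in CD27+CD69+ libraries and 807 ± 42.7 CPM in CD11b+CD69- libraries (log2 difference -0.99, SE 0.10, edgeR adjusted p = 7.35e-08).

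T cell receptor and CD3 genes gave many of the largest rises. Of 12 tested T cell genes 10 were higher and none lower. Cd3g lay between 286 and 745 CPM in the CD27+CD69+ libraries, with a median of 582, and between 0 and 19.2 CPM in the CD11b+CD69- libraries, with a median of 0. Cd3d lay between 243 and 535 CPM in the CD27+CD69+ libraries, with a median of 447, and between 0 and 10.3 CPM in the CD11b+CD69- libraries, with a median of 2.35. Cd3e, another chain of the signalling complex of the T cell receptor, had 1 count in all CD11b+CD69- libraries, and the ratio of CD27+CD69+ to CD11b+CD69- counts was 1908, with a 95% interval from 342 to 75422. The CD3 genes did not overlap between the populations (edgeR adjusted p = 1.30e-06 for Cd3g, 2.50e-06 for Cd3d and 2.18e-09 for Cd3e). Trac, the alpha chain constant gene, averaged 299 ± 109 CPM in CD27+CD69+ libraries and 35.1 ± 12.8 CPM in CD11b+CD69- libraries (log2 difference 3.09, SE 0.34, edgeR adjusted p = 2.88e-07).

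Of the pair, CD27+CD69+ libraries held most of the gamma chain transcripts. Gamma constant genes summed to 329 ± 101 CPM in CD27+CD69+ libraries and 15.1 ± 16.4 CPM in CD11b+CD69- libraries. They were not particular to CD27+CD69+ cells, with 212 ± 84.2 CPM in CD27+CD69- libraries and 8.17 ± 9.10 CPM in CD11b+CD69+ libraries. Tcrg-C1 and Tcrg-C2, near copies of each other among them, averaged 51.5 ± 22.6 and 99.4 ± 41.8 CPM in CD27+CD69+ libraries. Both had no count in CD11b+CD69- libraries. They were at least 231-fold and 445-fold higher (edgeR adjusted p = 1.21e-07 for Tcrg-C1 and 1.03e-07 for Tcrg-C2). Tcrg-V1 and Trgv2, gamma variable segments, were at least 94.7-fold and 144-fold higher. Trdc, the delta constant gene, was present in both populations, 151 ± 23.5 CPM in CD27+CD69+ libraries and 81.2 ± 18.4 CPM in CD11b+CD69- libraries (log2 difference 0.89, SE 0.20, edgeR adjusted p = 0.00298). Alpha variable segments summed to between 35.6 and 132 CPM in CD27+CD69+ libraries and to between 0 and 3.20 CPM in CD11b+CD69- libraries, and beta variable segments to between 45.7 and 315 CPM in CD27+CD69+ and to between 0 and 5.74 CPM in CD11b+CD69- libraries. Trbv3 and Trbv17, beta variable segments, were seen in 5 of 6 CD27+CD69+ libraries and in no CD11b+CD69- library. Coreceptor transcripts were scarce, as Cd8a lay between 2.89 and 30.4 CPM in the CD27+CD69+ libraries, with a median of 11.5, and between 0 and 1.97 CPM in the CD11b+CD69- libraries, with a median of 0, and Cd4 had no count.

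The remaining large rises came from single genes of varied function. Jaml, an adhesion molecule that costimulates epithelial gamma delta T cells, lay between 121 and 179 CPM in the CD27+CD69+ libraries, with a median of 168, and between 0 and 6.39 CPM in the CD11b+CD69- libraries, with a median of 0, and its ranges did not overlap (log2 difference 6.29, SE 0.79, edgeR adjusted p = 2.50e-06). Dpp4, the peptidase CD26, averaged 49.3 ± 14.7 CPM in CD27+CD69+ libraries with no count in CD11b+CD69- libraries, at least 225-fold higher (edgeR adjusted p = 3.32e-07). Bmp7, a secreted growth factor of the TGF beta family, averaged 23.4 ± 15.0 CPM in CD27+CD69+ libraries with no count in CD11b+CD69- libraries, at least 109-fold higher (edgeR adjusted p = 5.57e-04). Acoxl, an acyl-CoA oxidase-like gene, held few counts in CD11b+CD69- libraries, and the ratio of CD27+CD69+ to CD11b+CD69- counts was 172, with a 95% interval from 47.3 to 1428. Gpr18 and Gpr34, receptors for lipid mediators, averaged 558 ± 76.7 CPM in CD27+CD69+ libraries and 238 ± 33.9 CPM in CD11b+CD69- libraries for Gpr18 (log2 difference 1.23, SE 0.16, edgeR adjusted p = 3.53e-06) and 59.4 ± 19.6 CPM in CD27+CD69+ libraries and 1.39 ± 3.41 CPM in CD11b+CD69- libraries for Gpr34 (log2 difference 5.43, SE 1.17, edgeR adjusted p = 0.00218).

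For most called genes the populations that carry only 1 of the marker changes lay between the pair. Of 673 higher genes, 555 had a mean level in CD11b+CD69+ libraries between those of the pair, and 495 in CD27+CD69- libraries. Of 486 lower genes the numbers were 453 for CD11b+CD69+ and 315 for CD27+CD69- libraries. These levels are set side by side without a test, since the comparisons share libraries. The genes were chosen for a difference between the pair, which by itself favours a level between them. The same share over all genes tested was not counted. CD27+CD69- libraries held fibroblast genes at 552 to 11916 CPM, and the part of that in their levels was not tested.

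Granule genes were high in both CD11b+ populations. Gzma averaged 9791 ± 863 CPM in CD11b+CD69+ and 3829.7 ± 772 CPM in CD27+CD69- libraries, beside 2618 ± 291 CPM in CD27+CD69+ and 12464 ± 971 CPM in CD11b+CD69- libraries. Prf1 averaged 2225 ± 315 CPM in CD11b+CD69+ and 627 ± 229 CPM in CD27+CD69- libraries, beside 653 ± 146 CPM in CD27+CD69+ and 3802 ± 528 CPM in CD11b+CD69- libraries. Xcl1 was high in both CD69+ populations, with 738 ± 192 CPM in CD11b+CD69+ libraries and 305 ± 90.1 CPM in CD27+CD69- libraries. Tcf7 was highest in the CD27+ populations, and averaged 179 ± 47.4 CPM in CD11b+CD69+ and 298 ± 74.4 CPM in CD27+CD69- libraries. Klf2 averaged 354 ± 52.7 CPM in CD11b+CD69+ and 263 ± 63.4 CPM in CD27+CD69- libraries, and so stood apart in CD11b+CD69- libraries (764 ± 38.0 CPM). Cma1 did so too, with 78.6 ± 16.9 CPM in CD11b+CD69+ and 24.0 ± 9.63 CPM in CD27+CD69- libraries. Cd3g averaged 39.3 ± 30.7 CPM in CD11b+CD69+ and 303 ± 143 CPM in CD27+CD69- libraries.

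**Figure D5:**
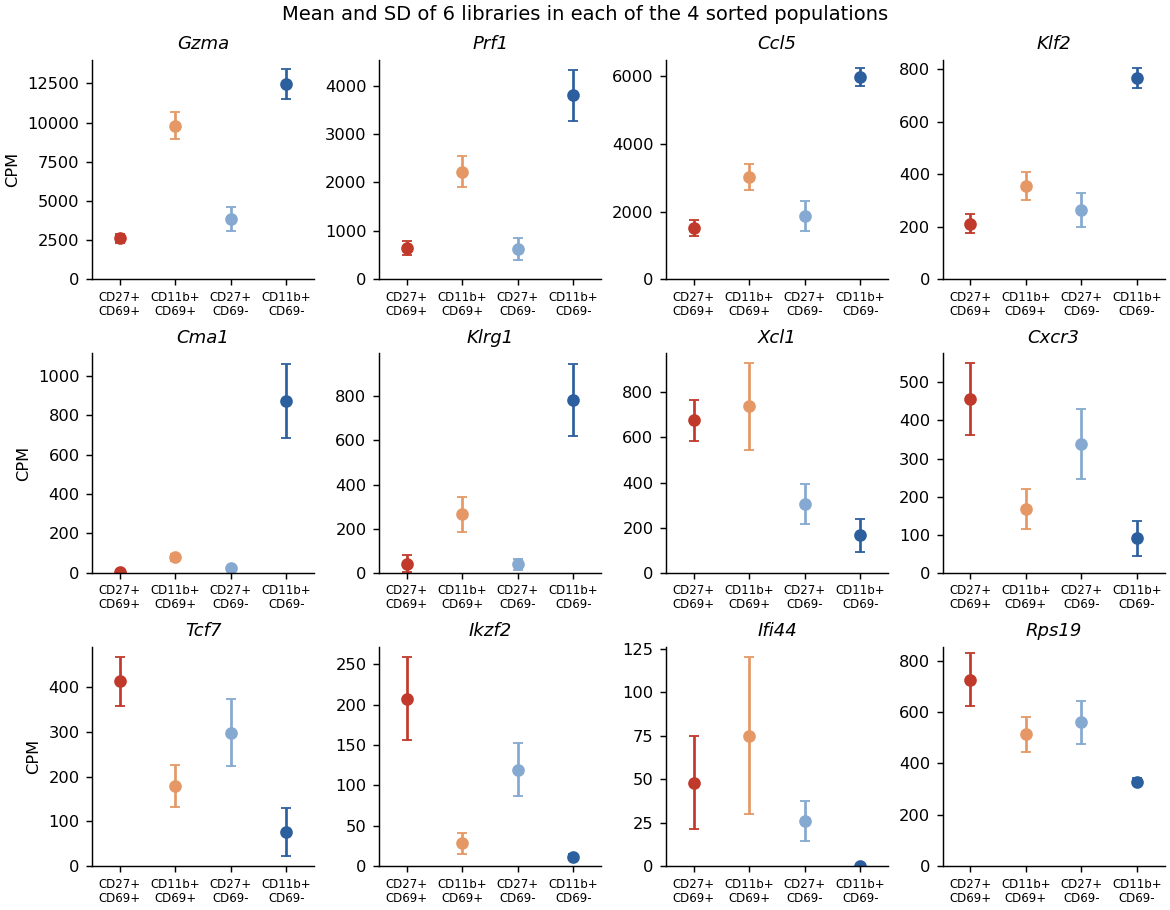
Mean CPM and SD of 6 libraries for 12 genes in CD27+CD69+, CD11b+CD69+, CD27+CD69- and CD11b+CD69- cells, left to right, each panel on its own linear axis from 0. Gzma, Prf1, Ccl5 and Klf2 are highest in CD11b+CD69- cells, Tcf7, Ikzf2 and Cxcr3 in the CD27+ populations, and Xcl1 in the CD69+ populations.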

How the data were processed

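The deposited table holds the authors' raw read counts for each Ensembl gene and library, unnormalized. The submitters' processing notes name the build GRCm38 with HTSeq and Picard, without versions. Aligner, annotation release and strand setting: not given in the sources used here. Per the labels' protocols, libraries were made with SMART-Seq v4 and Nextera XT, which keep no strand and add no molecular identifiers, so intervals and bounds cover counting error only. The table held 53465 distinct gene identifiers. Genes without a symbol held 0.174% of counts and stayed in the tests. Positions and exon overlaps came from GENCODE M21 (GRCm38). Promoters came from RefSeq, without a protein table here.

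Groups follow the titles. Tests used edgeR 4.0.16 in R 4.3.3, with filterByExpr at its minimum count of 10, TMM factors between 0.958 and 1.06, and 1 robust quasi-likelihood fit of 4 group means to all 24 libraries. The Benjamini-Hochberg adjustment ran over all 10536 genes, with a threshold of 0.05. SE is the size of the log2 difference over the square root of its F statistic. The edgeR, DESeq2 and limma-voom tests were tried on simulated counts with known changes, each without block or covariate. DESeq2 made more false calls there than the others and served only as an alternative. The remaining alternative fits were not simulated. Libraries of a population differed by more than counting error. Same-numbered libraries of both populations did not deviate together (correlations between -0.0063 and 0.021), and what M in the titles marks is not given, so libraries were not paired.

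Named genes are a set always named (sort markers, NK, cytokine and IL-2/IL-15 receptor genes), the 20 largest rises and falls with a mean of 10 CPM, the 15 smallest p-values, and members of lists past the threshold or with the smallest p. Members and lists were chosen with earlier results of these data known. Alternatives were DESeq2 1.42.0, limma-voom (limma 3.58.1), DESeq2 size factors, other filters, thinning to 1213914 counts, a replicate block, covariates, and leaving out libraries. A covariate is the log2 summed level of a gene list.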

Additional observations from a re-analysis of the deposited data

Results flagged for a closer look

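In each population the highest and the lowest library were set against the nearest other library, for 108 combinations of a population with a gene given by its range or a marker list. In 15 of them the gap filled more of the range than Dixon's 95% critical value for 6 samples, and chance flags about 5% of such groups. All 15 were the highest library of their population.

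Marker lists gave 5 of them. CD27+CD69+ replicate 6 stood apart with 391 CPM of the melanoma list, mostly Cd63, and 304 CPM of the fibroblast list, mostly Sparc. CD27+CD69+ replicate 3 did so with 3388 CPM of erythroid and platelet genes. CD11b+CD69- replicate 4 had 8.02 CPM of fibroblast genes and CD11b+CD69- replicate 6 had 2.87 CPM of erythroid and platelet genes.

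Among CD27+CD69+ libraries, replicate 5 stood apart for Gzmb (3324 CPM), Klrg1 (115 CPM) and Ccr7 (289 CPM). Replicate 2 stood apart for Gzmc, at 1172 CPM, and replicate 4 for Cym, at 2.75 CPM. Among CD11b+CD69- libraries, replicate 5 stood apart for Cd3g (19.2 CPM), Cd3d (10.3 CPM) and Cd8a (1.97 CPM). Replicate 2 stood apart for Ccr7 at 5.65 CPM, and replicate 3 for Il2ra at 10.7 CPM.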

How the results depend on the processing

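The count of 1159 genes past the threshold (673 higher, 486 lower) stayed within 1.5 times in the alternatives with other tests, scalings, filters, thinned counts, a replicate block or a macrophage or fibroblast covariate in all 24 libraries, from 879 with the macrophage covariate to 1403 with the DESeq2 test, and of the genes called 810 and 1143 were shared with those fits. Without 1 library in turn it lay between 979 and 1190, with 571 to 686 genes higher and 399 to 504 lower, and 266 to 288 members of lists past the threshold, against 302 of 635 with all libraries. The replicate block gave 650 higher and 476 lower genes, with 1033 shared. Alternatives chosen after seeing the data moved counts by more. The mitochondrial covariate left 526 genes (318 higher, 208 lower) and 194 list members. The macrophage covariate in a fit to the 12 libraries alone left 654 genes (344 higher, 310 lower). Leaving out CD27+CD69+ replicates 4 and 6 together left 322 lower genes. The cause was not tested.

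Uncalled genes changed sign, Eomes to 0.029, the Cd68 log2 fold change to -0.11 and Il2rb to 0.17 with the mitochondrial covariate. Without 1 library the Il2rg log2 fold change lay between -0.000362 and 0.061. Il2rb passed, as lower, in the fit to the 12 libraries alone. Of 167 called genes named above 140 passed in each alternative that tested them, and 164 passed without each library in turn, the others being Il15ra, Runx3 and Tnf. With the mitochondrial covariate 18 lost the call, namely Arhgef1, Bhlhe40, Ccnd2, Cd8a, Emilin2, Fyn, Il15ra, Il2ra, Itgal, Mcl1, Nfkbia, Runx3, Spp1, Srm, Syk, Tbx21, Tnf and Trbv17. The macrophage covariate in the 12 libraries cost 10 calls, leaving out replicates 4 and 6 cost 8, and limma-voom cost 4. Depth limits statements on genes with few counts, where a population without a count gives a bound only.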

Other observations

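Whole gene families, taken by symbol prefix after the data had been seen, extend the lists above without a test of their own. Of 82 cytosolic ribosomal protein genes tested 71 were higher in CD27+CD69+ cells and none lower. Their summed level was 32315 ± 3147 CPM in CD27+CD69+ libraries and 19708 ± 941 CPM in CD11b+CD69- libraries (SD, n = 6 each). Of 77 mitochondrial ribosomal protein genes 17 were higher and none lower, and their sum was 5669 ± 450.4 CPM in CD27+CD69+ libraries and 4342 ± 206 CPM in CD11b+CD69- libraries. The proteasome core, which includes the interferon-induced subunits, had 9 of 17 genes higher and none lower. Of 20 regulatory subunit genes 1 was higher, near the 6.39% of all genes tested.

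Genes of the actin cytoskeleton moved the other way. Actb, Actg1 and Cfl1, the actins and the filament-severing cofilin, were lower, as 3 of 4 genes in their group, whose sum was 10696 ± 916 CPM in CD27+CD69+ libraries and 14494 ± 734 CPM in CD11b+CD69- libraries. Flna, an actin crosslinker, was lower, and the filamin genes summed to 163 ± 53.9 CPM in CD27+CD69+ libraries and 485 ± 99.7 CPM in CD11b+CD69- libraries. Of 9 tested subunit genes of the Arp2/3 complex, which branches actin filaments, 3 were lower and 1 higher. Over all genes tested 4.61% were lower and 6.39% higher.

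Of 3 tested genes of the Serpina3 family of protease inhibitors 2 were higher, and the family summed to 1836 ± 268 CPM in CD27+CD69+ libraries and 621 ± 201 CPM in CD11b+CD69- libraries. Delta variable segments had no call among 2 tested, and summed to between 127 and 199 CPM in CD27+CD69+ libraries and to between 178 and 299 CPM in CD11b+CD69- libraries.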
